A study of Caenorhabditis elegans with 6 samples.

Results

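Small RNAs at 4 genes of Caenorhabditis elegans were followed: F15D4.5 and F15D4.6 on chromosome II, C38D9.2 on chromosome V and Y37E11B.2 on chromosome IV. They had been listed by name as endogenous target loci of the germline nuclear RNAi pathway and a neighbour of such a locus, and they are 4 of the 42402 loci in the deposited tables. Their identifiers are WBGene00008862, WBGene00008863, WBGene00008010 and WBGene00021375, in the order given, and RefSeq (WBcel235) annotates all of them as protein-coding genes without a common name. F15D4.6 is the next protein-coding gene after F15D4.5, so these neighbours are not independent loci.

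The libraries hold small RNA from whole young mothers grown at 20 °C on HT115 bacteria that carried the empty L4440 vector, the control food of feeding RNAi. Each of 3 genotypes had 2 libraries: a single mutant with the tm1200 allele of hrde-1, a double mutant with the alleles meg-3(ax3055) and meg-4(ax3052) from the outcrossed JH3745 strain, and a triple mutant with these 3 alleles. All 6 libraries therefore carry mutations in hrde-1, in meg-3 and meg-4, or in all 3 genes (written below as without these genes), and the wild type N2 enters only as the mean level and the comparisons that the authors deposited. The labels do not say that the replicates came from separate cultures, so the p-values measure the spread between these libraries, which may be technical. Where whole worms are sequenced, fewer germ cells and less small RNA per germ cell cannot be told apart.

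HRDE-1 is an Argonaute protein of the germline. It binds secondary small RNAs that RNA-dependent RNA polymerases copy from target transcripts, enters the nucleus, and with the NRDE proteins represses transcription and directs repressive histone methylation at the matching genes, an effect that can pass to offspring. MEG-3 and MEG-4 are disordered proteins that assemble P granules, the cytoplasmic bodies of germ cells in which much of the small RNA machinery resides. The series asked whether loss of hrde-1 suppresses the rise of small RNAs at rde-11 and sid-1 that follows loss of MEG-3 and MEG-4. The 4 loci show what the same strains did at listed targets of the pathway.

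Library totals ran from 2384147 to 6780320 reads assigned to loci. Replicates of a group differed by more than read sampling gives, with a chi-square per degree of freedom of 22.0 in the single mutant, 10.1 in the triple mutant and 27.96 in the double mutant. MicroRNAs made up 17.8% and 19.0% of the reads in the single mutant, 31.2% and 27.9% in the triple mutant, next to 30.3% and 30.7% in the double mutant, beside 18.9% in the authors' N2 mean. This share moved with the meg-3 and meg-4 mutations, and its part in the results was not tested other than by a second scale. A level is given as RPM, reads scaled to a common library total, and where the scale matters also relative to the microRNA reads of the library.

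F15D4.5 was the most abundant of the 4 loci in N2, at 3889 RPM in the authors' mean, which placed it at rank 34 of the 42402 loci. It stood at 332.6 and 288.4 RPM in the single mutant libraries and at 262.4 and 233.2 RPM in the triple mutant. In the double mutant, which kept hrde-1, it stood at 1939 and 2263 RPM. The mean was 310.5 ± 31.3 RPM (SD, n = 2) in the single mutant, 247.8 ± 20.6 in the triple mutant and 2101 ± 229.3 in the double mutant, or 7.98%, 6.37% and 54.0% of the N2 mean. The reads behind these values were 1813 and 1328 in the single mutant, 1779 and 556 in the triple mutant, against 10914 and 11578 in the double mutant.

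F15D4.6, next on the chromosome, carried fewer small RNAs, 248.7 RPM in the N2 mean. It measured 28.3 and 24.97 RPM in the single mutant, and 14.9 and 15.1 RPM in the triple mutant. The double mutant libraries held 114.1 and 112.0 RPM. The order of the groups was the order seen at F15D4.5. The single mutant mean of 26.6 ± 2.32 RPM was 10.7% of N2, the triple mutant mean of 14.998 ± 0.144 was 6.03%, and the double mutant mean of 113.0 ± 1.45 was 45.4% (SD, n = 2 each). The smallest of the 6 read counts at this locus was 36, in the second triple mutant library.

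C38D9.2, on another chromosome, behaved in the same order. The authors' N2 mean was 1181 RPM, at rank 118. The single mutant libraries held 113.6 and 72.5 RPM, the triple mutant 52.1 and 71.3, and the double mutant 530.5 and 523.1. The single and triple mutant libraries lay close together, and both stood well below the double mutant. Means were 93.0 ± 29.0, 61.7 ± 13.6 and 526.8 ± 5.22 RPM (SD, n = 2 each), or 7.88%, 5.22% and 44.6% of N2.

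Y37E11B.2 did not share this pattern. Its N2 mean was 489.6 RPM, at rank 285. It measured 303.6 and 374.4 RPM in the single mutant, 711.5 and 669.8 in the triple mutant, next to 693.8 and 914.1 in the double mutant. Both groups with mutated meg-3 and meg-4 lay above the single mutant, and they overlapped each other. The means of 339.0 ± 50.04, 690.7 ± 29.4 and 803.9 ± 155.8 RPM (SD, n = 2 each) were 69.2%, 141% and 164% of N2. Scaled to microRNA reads the same 3 means were 71.1%, 90.4% and 101.7% of N2, so the position of the triple mutant relative to N2 changed sides with the scale. The other 3 loci kept their order on that scale. F15D4.5 was at 8.24%, 4.08% and 33.5% of N2 in the single mutant, the triple mutant and the double mutant. F15D4.6 was at 11.04%, 3.87% and 28.2%, and C38D9.2 at 8.17%, 3.38% and 27.6%. Under the joint scaling of all 6 libraries used below (TMM), F15D4.5 stood at 268.0 RPM in the single and 291.1 in the triple mutant. The order of the single and triple mutant at F15D4.5 thus depends on the scale.

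**Figure D1:**
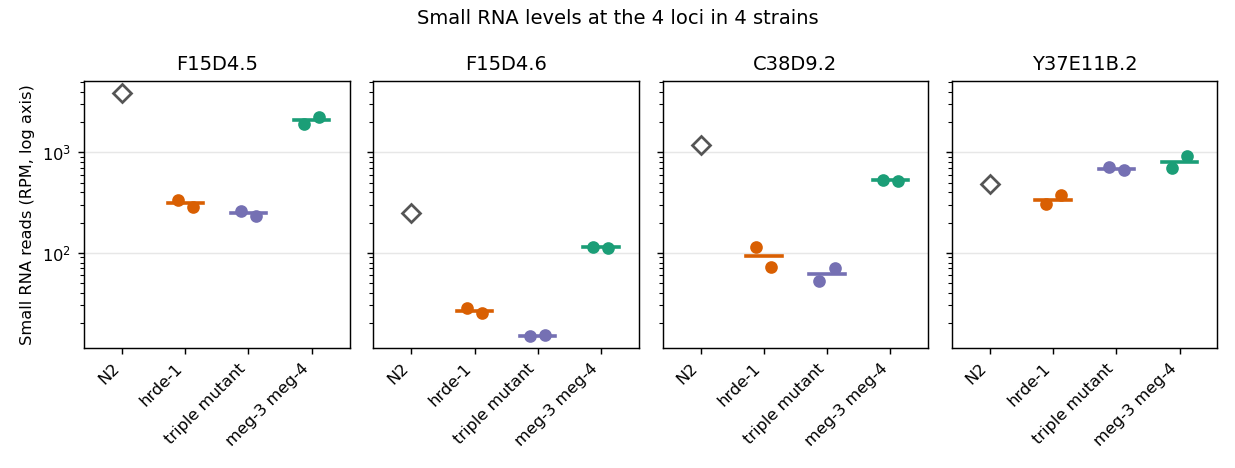
Small RNA level of the 4 loci, in RPM on a log axis, in each library (points) with the group mean (bar) and the authors' N2 mean (open diamond); hrde-1 marks the single and meg-3 meg-4 the double mutant. F15D4.5, F15D4.6 and C38D9.2 were low in both genotypes without hrde-1 and intermediate in the double mutant, while Y37E11B.2 was lowest in the single mutant, at 339.0 RPM.

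Loss of hrde-1 in worms otherwise wild type was compared by the authors against N2. In the authors' deposited table for single mutant over N2, F15D4.5 had a log2 fold change of −3.38 (adjusted p = 6.8e-37), F15D4.6 of −2.95 (1.9e-22) and C38D9.2 of −3.40 (1.7e-28). In that same authors' deposited table Y37E11B.2 was at −0.26 with an adjusted p of 0.618. Over all 13876 loci with an adjusted p in the authors' deposited table, 7.19% were lower and 8.75% higher at an adjusted p under 0.05. From the lowest fold change in the authors' deposited table, C38D9.2 stood at rank 200, F15D4.5 at 204, F15D4.6 at 289 and Y37E11B.2 at 4832. Y37E11B.2 is listed with the pathway's targets, but the authors did not call its small RNA level changed in the single mutant.

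The labels of the triple and the double mutant differ in hrde-1, and only the double mutant is labelled as outcrossed JH3745. Strain history and the hrde-1 allele therefore cannot be told apart here. The second comparison set the triple beside the double mutant. It was made on the deposited scaled signal of the 4 libraries, the one table that holds both groups, with limma on log2(signal + 1) over the 6067 loci whose mean reached 10, with Benjamini-Hochberg adjustment. All 4 loci passed this filter with a signal above 10 in each library. In limma, F15D4.5 fell from 1968 ± 387.4 in the double mutant to 262.7 ± 38.4 in the triple mutant (SD, n = 2 each), or −2.89 in log2 (SE 0.32, adjusted p = 2.1e-05). F15D4.6 fell from 105.3 ± 7.99 to 15.9 ± 0.852, or −2.66 in log2 (SE 0.33, limma adjusted p = 5.7e-05). C38D9.2 fell from 491.0 ± 38.7 to 64.8 ± 10.3, or −2.91 in log2 (SE 0.34, limma adjusted p = 4.0e-05). In that order these 3 loci stood at ranks 41, 55 and 40 from the lowest of the 6067.

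At Y37E11B.2 the signal was 756.0 ± 211.7 in the double mutant and 731.3 ± 77.4 in the triple mutant (SD, n = 2 each). The log2 fold change was −0.02 with a 95% interval from −0.71 to 0.67 (limma adjusted p = 0.984), an interval that does not reach the changes at the other 3 loci. Of all loci tested in limma, 3.44% were lower and 4.30% higher, and the median log2 fold change was −0.11. In the authors' deposited table for this comparison, 1.94% of 11871 loci were lower and 2.39% higher. There the authors' deposited table gave −2.90 at F15D4.5 (adjusted p = 2.2e-15), −2.73 at F15D4.6 (1.1e-10), −2.93 at C38D9.2 (1.5e-15) and −0.05 at Y37E11B.2 (0.998).

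**Figure D2:**
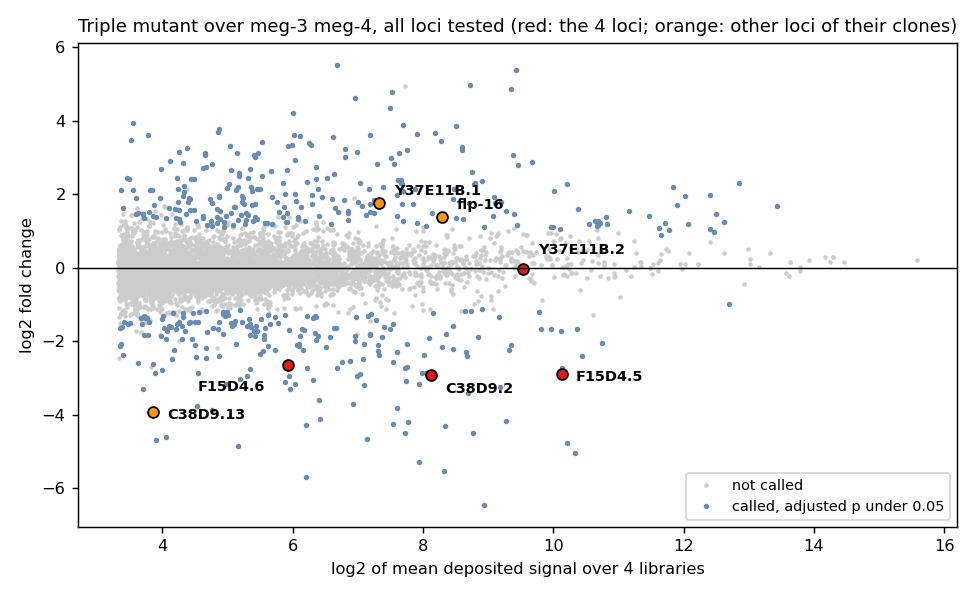
Log2 fold change of the triple over the double mutant against the mean level for the 6067 loci tested by limma. The 4 loci are in red. Y37E11B.1, C38D9.13 and flp-16, the other loci of their clones that limma called, are in orange. Clone loci that were tested and not called are not singled out. C38D9.13 passed the filter only through the double mutant, so its point carries no weight. F15D4.5, F15D4.6 and C38D9.2 lie between −2.91 and −2.66, and Y37E11B.2 lies at −0.02.

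The third comparison asked whether the triple mutant differed from the single mutant. No deposited table holds both groups, so the whole reads recovered from the values were scaled together by TMM, a scaling that sets most loci to no change, and fitted by limma over 6469 loci in all 6 libraries. The TMM-scaled level of F15D4.5 was 268.0 ± 6.74 RPM in the single mutant and 291.1 ± 43.1 in the triple mutant (SD, n = 2 each). The log2 fold change was 0.11 with a 95% interval from −0.59 to 0.81 (limma adjusted p = 0.867). F15D4.6 gave −0.37 with an interval from −1.02 to 0.28 (limma adjusted p = 0.565), and C38D9.2 gave −0.14 with an interval from −0.86 to 0.59 (limma adjusted p = 0.840). The intervals reach from −1.02 to 0.81, so equal levels are not shown. Scaling by microRNA reads moved the median of all loci from −0.18 to −1.27, and F15D4.5, F15D4.6 and C38D9.2 to −1.005, −1.44 and −1.24 (limma adjusted p of 0.0148, 0.0134 and 0.0206). Relative to that median the 3 loci were at 0.26, −0.17 and 0.02, beside 0.29, −0.19 and 0.04 under TMM.

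Y37E11B.2 rose in the triple over the single mutant. Its TMM-scaled level was 297.2 ± 80.5 RPM in the single mutant and 810.2 ± 87.2 in the triple mutant (SD, n = 2 each), which is 1.47 higher in log2 (SE 0.35, limma adjusted p = 0.0146). Among all loci tested, 4.37% were higher and 5.91% lower. The call was lost under microRNA scaling, at 0.35 (limma adjusted p = 0.193), although the locus stayed 1.62 above the median of all loci. It was also lost without single mutant replicate 1 (1.26, limma adjusted p = 0.0767), without triple mutant replicate 1 (1.36, 0.178) and without triple mutant replicate 2 (1.58, 0.0523).

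The same fit set the double beside the single mutant, strains that differ at all 3 genes, so the comparison belongs to no one gene. Replicate differences of these strains correlated (r = 0.56 over 6469 loci), which this fit does not model. F15D4.5 was higher in the double mutant at 2083 ± 341.5 TMM-scaled RPM, which is 2.94 in log2 (SE 0.32, limma adjusted p = 1.6e-05). F15D4.6 was higher by 2.23 (SE 0.30, limma adjusted p = 0.000103) and C38D9.2 by 2.71 (SE 0.34, limma adjusted p = 4.5e-05). Y37E11B.2 was higher by 1.43 (SE 0.35, limma adjusted p = 0.0100). Over all loci, 7.02% were higher and 9.38% lower. Scaled to microRNA reads the 4 changes were 2.02, 1.33, 1.80 and 0.51, and Y37E11B.2 alone lost its call (limma adjusted p = 0.0866). Y37E11B.2 lost it as well without double mutant replicate 2 (1.17, limma adjusted p = 0.0567).

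**Figure D3:**
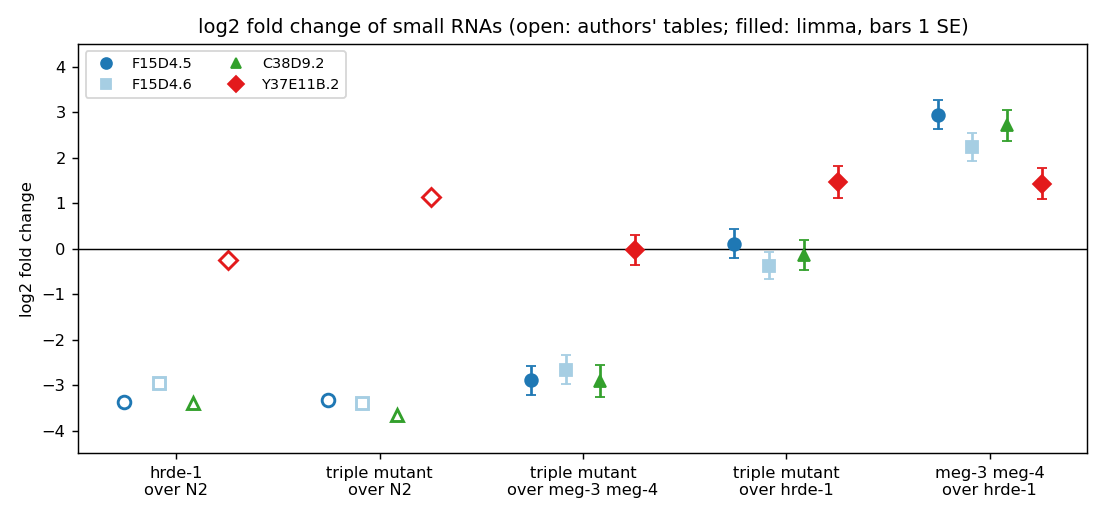
Log2 fold changes of the 4 loci in the comparisons made by limma (filled, with bars of 1 SE) and in the authors' deposited tables (open, with no error); hrde-1 marks the single and meg-3 meg-4 the double mutant. F15D4.5, F15D4.6 and C38D9.2 lie below −2.6 in each comparison of a strain without hrde-1 over one with it. They lie near 0 between the triple mutant and the single mutant under TMM.

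Against N2, the triple mutant again enters through the authors' deposited table, where 10.04% of 12595 loci were lower and 8.77% higher. The authors' deposited table gave −3.33 at F15D4.5 (adjusted p = 2.3e-75), −3.40 at F15D4.6 (6.7e-43) and −3.65 at C38D9.2 (1.6e-79). For Y37E11B.2 the authors' deposited table gave a rise of 1.14 (adjusted p = 2.8e-09). The RPM means in that table give lower values, −3.97, −4.05, −4.26 and 0.50 on the log2 scale for F15D4.5, F15D4.6, C38D9.2 and Y37E11B.2. The median shift between these scales was 0.63 over 1545 loci above 50 RPM in both strains. This comparison shares N2 with that of single mutant over N2, so the values of the pair are set side by side and not counted as separate support.

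No deposited comparison sets the double mutant against N2. By subtraction of the authors' deposited log2 fold changes (triple mutant over N2 less triple over the double mutant), F15D4.5 came to −0.42, F15D4.6 to −0.68, C38D9.2 to −0.72 and Y37E11B.2 to 1.18, beside a median of 0.07 over 11663 loci. These differences have no error and no test. The levels of F15D4.5, F15D4.6 and C38D9.2 in the double mutant were thus below the N2 mean in RPM, relative to microRNA reads and by this subtraction. Whether the effect of hrde-1 loss differed between worms with and without meg-3 and meg-4 was not tested.

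The share of reads at F15D4.6 within the F15D4.5 and F15D4.6 pair is free of library scaling. It was 6.01% in the N2 mean, 7.83% (95% Clopper-Pearson interval 6.68 to 9.11) and 7.97% (6.62 to 9.49) in the single mutant, 5.37% (4.40 to 6.49) and 6.08% (4.30 to 8.32) in the triple mutant, against 5.56% (5.14 to 5.99) and 4.72% (4.35 to 5.11) in the double mutant. These intervals cover counting error only, since reads without molecular identifiers are not independent molecules. Both single mutant libraries had the highest shares, while those of the triple mutant and the double mutant overlapped. Both loci of the pair were thus lower in the triple mutant with no separation of its shares from those of the double mutant.

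A second pair gave another picture. Y37E11B.1 is the next protein-coding gene after Y37E11B.2, and its reads were 1866 and 1914 in the single mutant, 1675 and 533 in the triple mutant, against 421 and 411 in the double mutant. Its share of the reads of Y37E11B.2 and Y37E11B.1 was 18.3% in the N2 mean, 53.0% (51.3 to 54.7) and 52.6% (51.0 to 54.2) in the single mutant, 25.8% (24.7 to 26.9) and 25.02% (23.2 to 26.9) in the triple mutant, against 9.73% (8.86 to 10.7) and 8.08% (7.34 to 8.86) in the double mutant. The replicates of each group agreed closely and the 3 groups did not overlap. How often neighbouring pairs among all loci separate in this way was not tested. The share of Y37E11B.1 was above N2 in all 4 libraries without hrde-1 and below it in the double mutant.

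**Figure D4:**
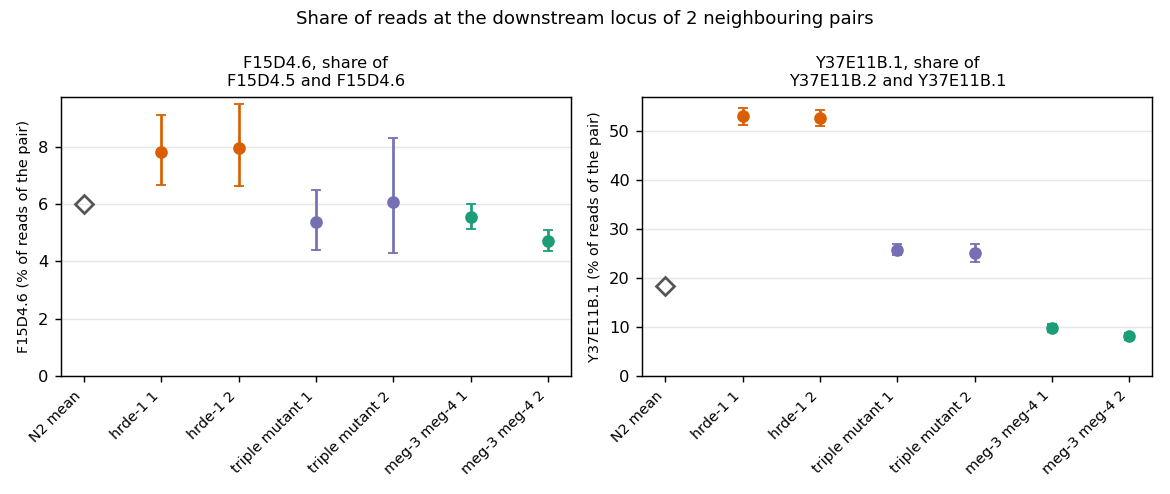
Share of reads, in percent, at F15D4.6 within its pair with F15D4.5 and at Y37E11B.1 within its pair with Y37E11B.2, by library, with exact 95% intervals and the authors' N2 mean as an open diamond. The Y37E11B.1 share is 53.0% and 52.6% in the single mutant (marked hrde-1), then 25.8% and 25.02% for the triple mutant, and 9.73% and 8.08% in the double mutant (meg-3 meg-4).

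Y37E11B.1 itself moved opposite to F15D4.5, F15D4.6 and C38D9.2. Its TMM-scaled level was 332.0 ± 86.4 RPM in the single mutant, 276.3 ± 37.4 in the triple mutant and 76.8 ± 8.12 in the double mutant (SD, n = 2 each). On the deposited signal it rose in the triple over the double mutant by 1.77 (SE 0.35, limma adjusted p = 0.00340), a call lost without triple mutant replicate 1 (0.306) or 2 (0.139). In the double relative to the single mutant it was at −2.08 (limma adjusted p = 0.000614), and in the triple relative to the single mutant at −0.25 (limma adjusted p = 0.719), or −1.36 scaled to microRNA reads (limma adjusted p = 0.00795). The authors' deposited table put it higher in single mutant over N2, at 2.06 (adjusted p = 3.1e-11). The neighbour was thus called higher than N2 in the single mutant, where Y37E11B.2 itself was not called changed. RefSeq places the antisense RNA Y37E11B.16 over Y37E11B.2, and since the strand setting of the counting is not given in the sources used here, reads of the pair cannot be told apart. Y37E11B.16 was counted at 1 to 7 reads per library.

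The authors' annotation names 27 other loci with the same clone names, F15D4, C38D9 and Y37E11B, and 9 of them passed the filter in the limma fits. In the triple over the double mutant, limma called 2 of the 9 higher (Y37E11B.1 and flp-16), beside 4.30% of all loci higher and 3.44% lower, with a median log2 fold change of 0.05. C38D9.13 is left out of the counts made by limma, because it passed the filter only through the double mutant, in which it was high. In the triple over the single mutant, limma called 0 of 9, edgeR called 0 of 9 and DESeq2 0 of 13, while 1 in limma, 1 in edgeR and 2 in DESeq2 had an unadjusted p under 0.05. Over all loci limma called 4.37% higher and 5.91% lower in that comparison. In the double over the single mutant, limma called 1 lower (Y37E11B.1), beside 7.02% of all loci higher and 9.38% lower, with a median of −0.31. Each median and each count out of 9 includes C38D9.13 among the loci tested. With so few loci these counts say nothing particular about the clones.

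The authors' deposited tables gave an adjusted p to more of these loci, 17 in the single mutant over N2 and 16 in each of the other tables. For the single mutant over N2, the authors' deposited table called 4 higher (Y37E11B.1, flp-16, taf-2 and Y37E11B.7) and 2 lower (C38D9.13 and 21ur-10492), beside 8.75% and 7.19% of all loci. For the triple mutant over N2, the authors' deposited table called 3 higher (Y37E11B.1, flp-16 and Y37E11B.3) and the same 2 lower, beside 8.77% and 10.04%. In the triple over the double mutant, the authors' deposited table called 3 higher (Y37E11B.1, flp-16 and F15D4.4) and again these 2 lower, beside 2.39% and 1.94%. C38D9.13 and 21ur-10492 were high only in N2 and the double mutant, which alone gave them enough signal for a call. Their lower calls therefore carry no weight in these counts. At Y37E11B.7 the reads were 28 and 21 in the single mutant against 1 and 1 in the triple mutant or 0 and 1 in the double mutant, so only the single mutant libraries stood out there. Its higher call over N2 rests on those libraries and carries no weight either.

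C38D9.13 (WBGene00235090), a noncoding RNA locus next after C38D9.2, was low in the same strains. It had 142 and 174 reads in the double mutant but 22 and 13 in the single mutant and 9 and 1 in the triple mutant. The double mutant alone carried it past the filter, so no limma change is given in numbers. The authors' deposited table placed it at −3.85 in single mutant over N2 (adjusted p = 7.2e-18), a value that rests likewise on its level in N2. The piRNA locus 21ur-10492 lies inside F15D4.5 and had 14 and 26 reads in the double mutant, 4 and 0 in the single mutant and 0 and 0 in the triple mutant, too few to pass the limma filter. Reads of that locus cannot be told apart from other small RNAs of F15D4.5.

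The neuropeptide gene flp-16, which lies 3 genes before F15D4.5, moved the other way. It had 900 and 1088 reads in the double mutant, 2657 and 1110 in the triple mutant, beside 1962 and 2137 in the single mutant. Its rise in the triple over the double mutant was 1.39 (SE 0.35, limma adjusted p = 0.0198), and was not called without triple mutant replicate 1 (0.473) or 2 (0.611). The other 6 loci of the clones that were tested were called by limma in none of the 3 comparisons.

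**Figure D5:**
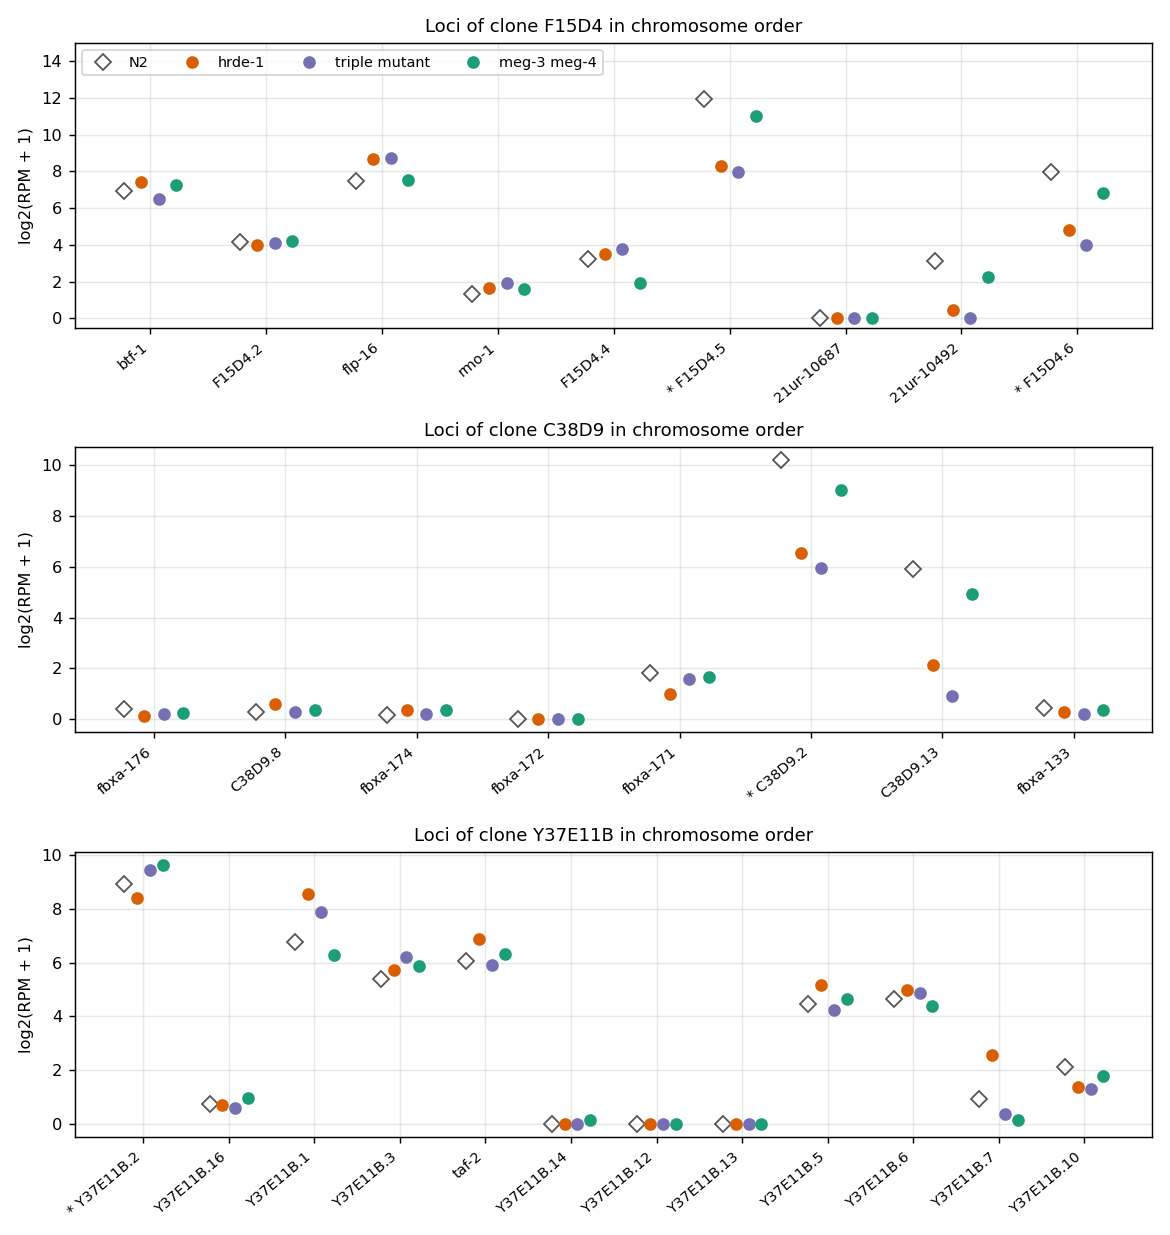
Mean small RNA level, as log2(RPM + 1), at loci of the 3 clones in the order of the RefSeq annotation, equally spaced and not to genomic scale, with one point per strain (hrde-1 marks the single and meg-3 meg-4 the double mutant, the open diamond the authors' N2 mean) and a star at the 4 loci. At F15D4.5, F15D4.6, C38D9.2 and C38D9.13 the single and triple mutants lie below the double mutant and N2, and at Y37E11B.1 they lie above both.

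Small RNAs also map to the genes of the pathway itself, where they measure small RNA at the locus and not the expression of the gene. For that reason the mutated genes hrde-1, meg-3 and meg-4 were not checked here through their own transcripts. Of 16 genes of nuclear RNAi and its chromatin steps, 15 were found and 14 passed the limma filter. Limma called 0 of 14 in each of the 3 comparisons, with medians of −0.17 (triple over the double mutant), −0.26 (triple over the single mutant) and −0.04 (the double over the single mutant) beside −0.11, −0.18 and −0.15 over all loci. Over all loci limma called 3.44% lower and 4.30% higher, then 5.91% and 4.37%, and 9.38% and 7.02%, so 0 of 14 is not far from the background. At an unadjusted p under 0.05, limma had 2, 0 and 1 of these genes in that order. edgeR called 0 in each comparison, and DESeq2 called 1, hrde-1, in the triple over the double mutant.

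The small RNAs at the hrde-1 gene, which encodes the Argonaute, were at a log2 fold change of −0.996 in the triple over the double mutant (limma adjusted p = 0.0856). At nrde-2, which encodes a nuclear factor that acts with the pathway's Argonautes, the value was 0.95 (limma adjusted p = 0.100). Against N2, the authors' deposited table called nrde-2 higher in the single mutant, at 1.06 (adjusted p = 0.00226), and the histone methyltransferase gene set-32 higher at 0.95 (0.0355). It called hpl-1, which encodes a heterochromatin protein, lower at −1.06 (0.0418), in the authors' deposited table. For the triple mutant over N2, the authors' deposited table called nrde-2 higher at 1.21 (2.7e-09), met-2 at 0.86 and nrde-1 at 0.81, and hrde-1 lower at −0.90 (8.4e-06). Both the single and the triple mutant carry the tm1200 allele at hrde-1 itself. In the single mutant over N2, hrde-1 was at −0.10 in the authors' deposited table (adjusted p = 0.889). The sizes of the called changes, at most 1.21 in log2, were below those of F15D4.5, F15D4.6 and C38D9.2 in the same tables. Among 15 genes, the authors called 2 higher and 1 lower in single mutant over N2, beside 8.75% and 7.19% of loci. In triple mutant over N2 they called 3 higher and 1 lower, beside 8.77% and 10.04%. With so few genes these counts are not read as a result about the pathway.

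Across the 6 libraries, log2 TMM-scaled levels of F15D4.5 and F15D4.6 had a Pearson r of 0.985, F15D4.5 and C38D9.2 of 0.983, and F15D4.6 and C38D9.2 of 0.986. With Y37E11B.2 the 3 loci had r of 0.50, 0.35 and 0.40. These r describe 3 groups of 2 libraries and carry no test. Among 6468 other loci, those with the highest r to F15D4.5 were fbxa-65 (r = 0.999), H25P19.1 (0.999), Y61A9LA.12 (0.998), K09B11.4 (0.997) and Y73B3A.1 (0.996). An r above 0.95 was reached by 95 loci. Such an r does not measure the level or the size of a change. H25P19.1 had mean TMM-scaled levels of 88.7 RPM in the single mutant, 90.8 in the triple mutant and 2415 in the double mutant, so the spread between its groups was wider than that of F15D4.5. At fbxa-65 the means were 11.9, 11.9 and 33.9 RPM in that order, a narrower spread than that of F15D4.5.

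For F15D4.6 the 5 loci with the highest r were dmsr-6, Y55B1BR.5, rps-1, lon-8 and ceh-20. For C38D9.2 they were kat-1 (r = 0.995), rps-1, crt-1, F55B11.6 and H25P19.1. The ribosomal protein gene rps-1 appeared for both, and H25P19.1 for both F15D4.5 and C38D9.2. TMM-scaled means in the single, triple and double mutant were 3.22, 2.02 and 153.7 RPM at lon-8. At rps-1 they were 9.16, 8.56 and 18.6 RPM. Both loci thus reached the mean of at least 10 only through the double mutant, so their high r carries no weight. The pattern of Y37E11B.2 was closest to F40D4.16 (r = 0.997), the microRNA locus mir-61 (0.996), Y57A10A.1, the spliced leader locus sls-2.9 and pot-1, with 199 loci above an r of 0.95. At mir-61 the TMM-scaled means were 2654 RPM in the single mutant, 4396 in the triple mutant and 4301 in the double mutant, low in the single mutant and high in the other groups, as was the microRNA share of the libraries. The part of that share in the values of Y37E11B.2 was not tested beyond the microRNA scaling given above.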

How the data were processed

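Small RNA was treated with RNA 5' polyphosphatase, which lets secondary small RNAs be ligated, and prepared with a TruSeq kit for small RNA; this follows the labels' protocols. The submitters' processing notes name cutadapt, Bowtie2, HTSeq, DESeq2 and the build ce10. Strand setting and treatment of reads with several matches are not given in the sources used here. The authors deposited RPM in the table with the triple mutant and N2, and a scaled signal with unequal column sums in the other 2. They also deposited log2 fold changes and adjusted p-values. 4 N2 columns of single libraries, which match no sample label, were not used.

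Whole reads were recovered for 100% of values within a tolerance of 0.001 read, and 0 loci differed between the tables that share the triple mutant. The edgeR test foreseen for raw counts became an alternative, because the deposited values are scaled: limma 3.58.1 (R 4.3.3, trend, log2 of value + 1, mean of at least 10, Benjamini-Hochberg adjustment over all loci, threshold 0.05) was the main test. edgeR 4.0.16 supplied TMM and its quasi-likelihood test, and DESeq2 1.42.0 was another alternative. Groups come from the genotype labels. The alternatives also changed pseudocount, filter, scaling and libraries, and the limma steps were checked on seeded counts. The RefSeq table (WBcel235) gave names and order only, so no coordinates are printed.

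Named loci were the 4 loci, the 5 with the highest r to each, loci of the same clones with a mean of at least 10, and nuclear RNAi genes that were called; others were chosen after their values were seen (21ur-10492, Y37E11B.16, Y37E11B.7 and F15D4.4). The loci and lists were chosen with earlier results of these data known.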

Additional observations from a re-analysis of the deposited data

How the results depend on the processing

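Each result at the 4 loci was recomputed under 17 other settings. F15D4.5, F15D4.6 and C38D9.2 kept direction and call in the triple over the double mutant (−3.10 to −2.69, −2.83 to −2.40 and −3.09 to −2.75) and in the double over the single mutant (2.02 to 3.21, 1.33 to 2.39 and 1.80 to 3.11) under all of them. Y37E11B.2 in the triple over the double mutant reversed to 0.038 with all 6 libraries scaled by TMM and ran from −0.31 to 0.27 with one library left out, never called. In the triple over the single mutant, F15D4.5 reversed to −0.32 by library totals and −1.005 by microRNA reads, and ran from −0.040 to 0.26 with one library left out. There microRNA scaling also gave −1.44 at F15D4.6 and −1.24 at C38D9.2, both then called, 0.35 at Y37E11B.2 and −0.62 at flp-16. With one library left out, C38D9.2 ran from −0.47 to 0.13, F15D4.6 from −0.47 to −0.32 and Y37E11B.2 from 1.26 to 1.5997. Y37E11B.2 in the double over the single mutant gave 0.51 by microRNA reads and 1.17 to 1.78 with one library left out. The cause was not tested.

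Counts of called loci were 470 (triple over the double mutant), 665 (triple over the single mutant) and 1061 (the double over the single mutant). With a mean of at least 50 they were 276, 405 and 566, from fewer loci tested, and with a mean of at least 1 the last was 1673. With one library left out they ran from 207 to 880, 385 to 991 and 788 to 1257. Lowest and highest were without triple mutant replicate 2 and double mutant replicate 2 for the first, and without single mutant replicate 1 and double mutant replicate 2 for the second. The first was 228 and the second 421 without triple mutant replicate 1. Scaling to microRNA reads gave 5083 (41 higher, 5042 lower, beside 283 and 382) and 3056 (168 and 2888, beside 454 and 607) for the last 2, and library totals gave 98 higher and 483 lower for the second. MicroRNA scaling moved the median of all loci to −1.27 and −1.06.

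Replicate numbers were not taken as pairs in the main fits. The correlations of replicate differences were −0.19 (single and triple mutant), 0.56 (single and double) and −0.11 (triple and double). The single and double mutant thus shared a difference between replicates that the triple mutant did not share. Its cause was not tested. With the replicate number as a block, 438, 831 and 1251 loci were called and no call at the 4 loci changed, while flp-16 gained one in the double over the single mutant. Library totals ran down to 2384147 reads, which limits what can be read at loci of few reads.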
